A study of Mus musculus with 12 samples.

Results

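The genes described here are 10 genes of lung epithelial identity: the lineage factors Nkx2-1, Foxa1 and Foxa2, the epithelial ETS factors Ehf and Elf3, the surfactant genes Sftpd, Sftpc, Abca3 and Lamp3, and the tight junction gene Cldn18. They were chosen by name, with earlier results of these data known, so counts over them are descriptions. Every probe set of each gene in the deposited table was taken. Of the 10 genes, 9 had a probe set that names 1 gene only, and all 9 passed the filter on dim genes. They are 9 of 15493 genes tested among 18193 with such a probe set. The only probe set for Lamp3 is also annotated to Ppid, so Lamp3 was not analysed here.

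Nkx2-1 is the homeodomain factor that specifies lung epithelium and, together with the forkhead pioneer factors Foxa1 and Foxa2, activates surfactant genes in alveolar type 2 cells. These cells make surfactant, a film of lipid and proteins that keeps the air spaces open, and store it in lamellar bodies that Abca3 fills with lipid. In mouse lung adenocarcinoma, tumours that lose Nkx2-1 are known to lose this pulmonary programme and to express foregut and gastric genes instead.

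The arrays measured RNA of whole subcutaneous tumours grown in the flank of female 129sv/ev mice from the lung adenocarcinoma line 344SQ, of mouse origin, or from its derivative that resists anti-PD-1 (a checkpoint antibody that releases T cells from inhibition). The 4 groups were resistant tumours under anti-PD-1 (Res+PD1), resistant tumours under control IgG (Res+IgG), parental tumours under anti-PD-1 (Sen+PD1) and parental tumours under control IgG (Sen+IgG), each with 3 arrays. Injections of 10 mg/kg were made on day 4 and again on day 7, counted from implantation, and tumours were taken on day 11, with 5 mice per group. The labels do not say how the resistant line was obtained or whether it is 1 clone, nor which of the mice gave each array. The p-values therefore speak for the scatter of these arrays alone, which may be technical. Line and anti-PD-1 resistance cannot be told apart, since each is represented by a single line.

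Values are log2 expression levels, on which a difference of 1 is a doubling of signal. Arrays have no sequencing depth, and precision is limited by their number. Across all 12 arrays, 48.5% of the variance lay on a first principal component, and the arrays Sen+IgG replicate 1 and Sen+PD1 replicate 3 stood apart from the rest. The 3′ signal of the Gapdh controls, set against their 5′ signal as a measure of RNA integrity, was higher by 0.035 ± 0.052 in resistant and 0.263 ± 0.096 in parental tumours (SD, n = 6 arrays per line). The beta-actin controls differed by 0.483 ± 0.080 in resistant and 0.753 ± 0.105 in parental tumours. This measure therefore moved with the line, and its part in the differences between lines was not tested.

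The labelled tissue was checked against the lung markers first. Nkx2-1 itself was dim on every array, between 3.78 and 4.16, which is above the floor of 3.32 on all 12 arrays but below the median of all values, 4.81. Its log2 levels were 3.78, 3.93 and 3.93 in Res+PD1, 4.01, 3.90 and 3.90 in Res+IgG, 4.15, 3.88 and 3.92 in Sen+PD1, and 4.16, 3.95 and 4.03 in Sen+IgG. The 3 arrays of Res+PD1 lay just below those of Sen+IgG, which differ in both line and antibody, and every other pair of groups overlapped. Sftpc, the most specific product of alveolar type 2 cells, exceeded the median of all values on 1 array only. Sftpa1, another surfactant protein gene, lay between 3.14 and 3.72. Nkx2-1, Sftpc and Sftpa1 were thus dim in both lines, but most alveolar type 2 genes were not: 9 of 10 in the list had a mean over all arrays above the median of all values, Sftpa1 being the exception, and the means of the 10 ran from 3.40 to 12.3. Foxa1 and Foxa2 were bright in all groups, at 8.03 and above. Of 13 foregut and gastric genes, 12 likewise had a mean above the median of all values, and their means ran from 4.18 for Gkn1 to 11.0 for Ctse. That median is taken over all probe sets, and 11875 of the 15493 genes tested exceeded it on at least 3 arrays. A mean above it therefore does not set these lists apart from other genes. Which cells of the whole tumours gave these signals was not tested.

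**Figure D1:**
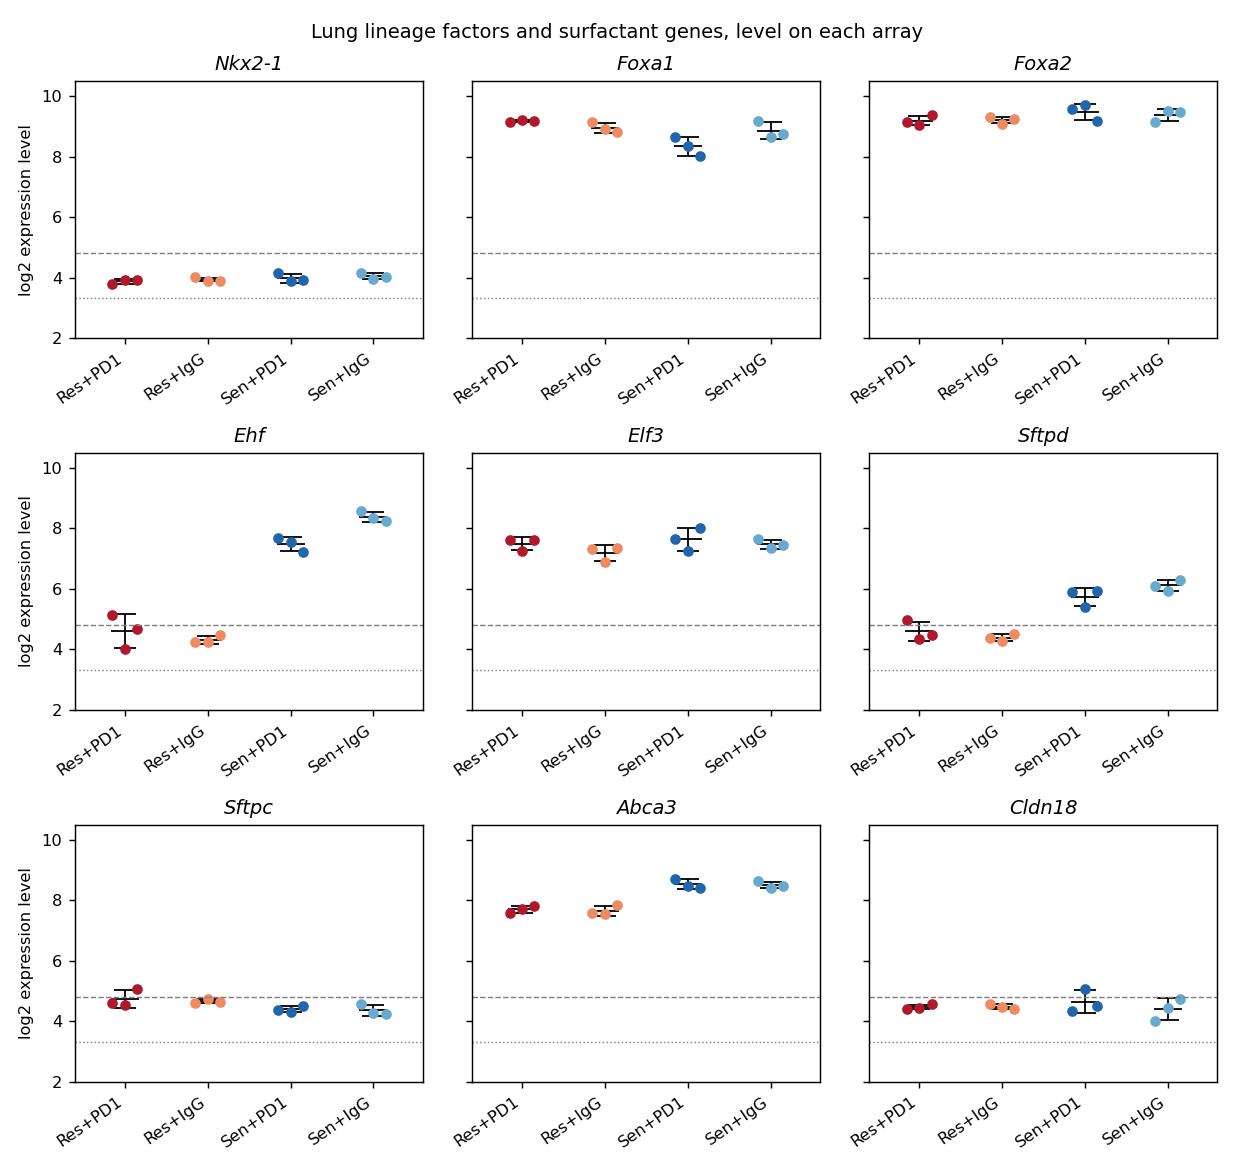
Log2 expression level (vertical axes) of the 9 genes measured, on each of 3 arrays in Res+PD1, Res+IgG, Sen+PD1 and Sen+IgG. Each point is 1 array, bars give the mean ± SD, and the dashed and dotted lines mark the median of all values (4.81) and the floor (3.32); Ehf averaged 4.62, 4.32, 7.49 and 8.39 in these groups, while those of Nkx2-1 overlapped in every pair that shares a line or an antibody.

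Between the lines under IgG, 3 of the 9 genes were lower in resistant tumours and 0 were higher. They were Ehf, the surfactant protein gene Sftpd and the lipid transporter gene Abca3. Over all genes tested, 16.2% were called in either direction, 8.93% higher and 7.31% lower. The count over all genes, 2517, was 1472 without Res+IgG replicate 1, 1273 without Res+IgG replicate 2, 1542 without Sen+IgG replicate 2 and 1569 without Sen+IgG replicate 3. Without any other single array it ran from 1742 to 3483. The same 3 of the 9 genes were called each time. The median difference of the 9 genes was -0.18, against 0.067 over all genes. None of the lineage factors Nkx2-1, Foxa1 and Foxa2 passed the test. Because tumours were measured whole, fewer cells of a type and less RNA per cell cannot be told apart for any of these genes.

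Ehf, an ETS factor of epithelial cells, had the largest difference among the 9. Its levels were 4.23, 4.26 and 4.46 in Res+IgG, against 8.58, 8.34 and 8.26 in Sen+IgG. Every Res+IgG array lay below the median of all values and every Sen+IgG array far above it. The difference was -4.08 (SE 0.23, 95% interval -4.59 to -3.57, limma adjusted p = 6.82e-06), a 16.9-fold lower signal. Under anti-PD-1 the levels were 5.14, 4.02 and 4.69 in Res+PD1, against 7.68, 7.56 and 7.23 in Sen+PD1. These groups did not overlap either, and the difference was -2.87 (SE 0.23, 95% interval -3.38 to -2.36, limma adjusted p = 5.07e-05). Without the 2 arrays that stood apart the differences were -3.98 under IgG and -3.003 under anti-PD-1. Arrays that do not overlap with the resistant ones lower were found for 15.2% of all genes under IgG and 15.8% under anti-PD-1.

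Ehf is covered by 4 probe sets, of which 3 were bright enough to test. The probe set 1419475_a_at read 4.14, 4.04 and 3.93 in Res+IgG, against 7.60, 7.41 and 7.37 in Sen+IgG. The probe set 1419474_a_at read 3.52, 2.83 and 2.94 in Res+IgG, against 6.60, 6.58 and 6.40 in Sen+IgG. For 1419474_a_at, 2 of the 3 Res+IgG arrays and 1 Res+PD1 array lay below the floor of 3.32, so its differences between the lines are not given. The other 2 were lower in resistant tumours by differences of -3.42 and -4.08 under IgG and -2.03 and -2.87 under anti-PD-1. The largest limma adjusted p among these 4 values, over 28634 probe sets, was 3.85e-05. The remaining probe set, 1447760_x_at, lay between 2.90 and 3.44 and exceeded the floor on 1 array.

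**Figure D2:**
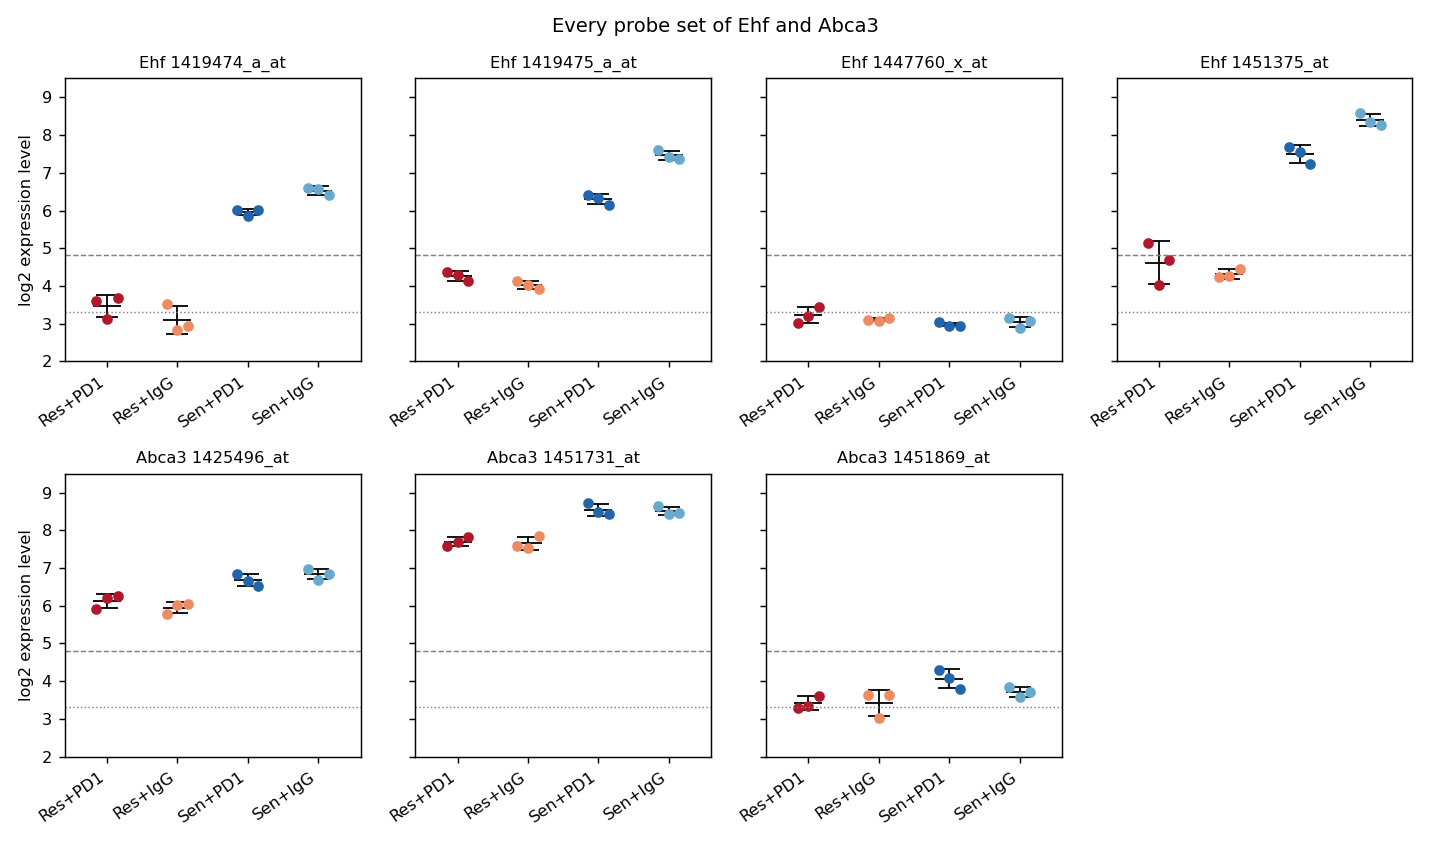
Log2 level (vertical axes) of the probe sets of Ehf and Abca3 on each array in Res+PD1, Res+IgG, Sen+PD1 and Sen+IgG, with points for arrays, bars for mean ± SD, and dashed and dotted lines for the median of all values (4.81) and the floor (3.32). The 3 brighter Ehf probe sets separate the lines on every array, whereas the dimmest, 1447760_x_at, stays between 2.90 and 3.44.

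Elf3, the other epithelial ETS factor, did not pass the test between lines. It read 7.32, 6.89 and 7.34 in Res+IgG, against 7.64, 7.34 and 7.44 in Sen+IgG, and the interval of its difference ran from -0.72 to 0.14. Under anti-PD-1 it read 7.62, 7.24 and 7.62 in Res+PD1, against 7.66, 7.25 and 8.02 in Sen+PD1. The highest array of Res+IgG equalled the lowest of Sen+IgG, and under anti-PD-1 the arrays of the lines were intermixed.

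Surfactant protein D, encoded by Sftpd, is a collectin of innate defence in the air spaces. Sftpd read 4.38, 4.29 and 4.50 in Res+IgG, against 6.11, 5.94 and 6.30 in Sen+IgG, and the arrays did not overlap. The difference was -1.73 (SE 0.18, 95% interval -2.12 to -1.33, limma adjusted p = 2.78e-04), a 3.31-fold lower signal. Under anti-PD-1 it read 4.96, 4.35 and 4.49 in Res+PD1, against 5.89, 5.40 and 5.94 in Sen+PD1, a difference of -1.14 (limma adjusted p = 9.09e-04). Resistant arrays all below the parental ones were found for 15.2% of all genes under IgG and 15.8% under anti-PD-1. Of the 6 resistant arrays, 5 lay below the median of all values and 1 just above it, whereas every parental array exceeded it. Without the arrays that stood apart the differences were -1.73 under IgG and -1.045 under anti-PD-1.

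Sftpc encodes the hydrophobic surfactant protein C. It read 4.59, 4.73 and 4.65 in Res+IgG, against 4.56, 4.27 and 4.25 in Sen+IgG, and 4.59, 4.53 and 5.08 in Res+PD1, against 4.38, 4.32 and 4.50 in Sen+PD1. The resistant arrays were all above the parental ones within each antibody, but the limma adjusted p was 0.168 under IgG and 0.0907 under anti-PD-1. Arrays that do not overlap with the resistant ones higher were found for 23.6% of all genes under IgG and 29.9% under anti-PD-1. The second Sftpc probe set stayed below the floor on all arrays, between 2.32 and 2.98.

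Abca3 pumps phospholipid into lamellar bodies. Its brightest probe set, 1451731_at, read 7.59, 7.53 and 7.84 in Res+IgG, against 8.63, 8.42 and 8.47 in Sen+IgG. Under anti-PD-1 it read 7.59, 7.70 and 7.81 in Res+PD1, against 8.71, 8.48 and 8.42 in Sen+PD1. All 6 resistant arrays lay below all 6 parental arrays. The differences were -0.85 under IgG (SE 0.11, 95% interval -1.10 to -0.61, limma adjusted p = 9.32e-04) and -0.84 under anti-PD-1 (limma adjusted p = 4.02e-04). Without the arrays that stood apart they were -0.792 and -0.895. The second probe set, 1425496_at, was also lower, with differences of -0.88 and -0.55. The dimmest, 1451869_at, differed by -0.28 under IgG with an adjusted p of 0.305 over all probe sets, and by -0.65 under anti-PD-1 with an adjusted p of 0.0164.

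Promoter sequences, the 250 bases before the start of transcription, were taken from RefSeq on build GRCm38.p6 for 7 of the 10 genes. Those of Abca3 and Foxa1 are shown because these genes were called in opposite directions between the lines under anti-PD-1. Each reads 5′ to 3′ on the strand of the gene and ends just before the start. The letters searched on both strands were CTCAAG and CACTTG for NKX2-1, TGTTTNC for forkhead factors and GGAAGT for ETS factors, and capitals mark a match. The Abca3 window lies at chr17:24351773-24352022 on the plus strand, and the Foxa1 window at chr12:57546112-57546361 on the minus strand.
Abca3: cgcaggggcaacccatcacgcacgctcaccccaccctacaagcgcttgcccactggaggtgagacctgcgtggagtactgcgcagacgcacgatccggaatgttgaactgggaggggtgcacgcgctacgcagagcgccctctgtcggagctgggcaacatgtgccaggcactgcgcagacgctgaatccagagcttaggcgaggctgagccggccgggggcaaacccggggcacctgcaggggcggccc
Foxa1: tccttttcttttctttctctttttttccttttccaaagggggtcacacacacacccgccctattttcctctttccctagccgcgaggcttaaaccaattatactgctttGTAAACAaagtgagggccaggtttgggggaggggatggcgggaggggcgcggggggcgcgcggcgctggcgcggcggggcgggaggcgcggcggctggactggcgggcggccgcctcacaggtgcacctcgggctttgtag
The Abca3 window held none of the searched letters. The Foxa1 window held 1 forkhead match, on the strand opposite to the gene. Among 32817 windows of the same length, 17.8% held the forkhead letters, 22.6% at least 1 of the NKX2-1 strings and 19.7% the ETS letters. Of the other windows, both of Cldn18 and that of Lamp3 held forkhead matches, 1 of 3 for Foxa2 held ETS matches, and that of Nkx2-1 held none of the searched letters. NKX2-1 strings were found in the window of Elf3, in another of the 3 of Foxa2 and in 1 of the 2 of Cldn18. A match is a description of the letters and not evidence of binding. Ehf, Sftpd and Sftpc had no entry.

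Under anti-PD-1, 4 of the 9 genes differed between the lines, 3 lower (Ehf, Sftpd and Abca3, above) and 1 higher (Foxa1) in resistant tumours. Over all genes, 33.5% were called in this comparison, 21.6% higher and 11.9% lower. The median difference of the 9 genes was -0.18, against 0.073 over all genes. Foxa1 read 9.14, 9.20 and 9.19 in Res+PD1, against 8.66, 8.36 and 8.03 in Sen+PD1. The resistant arrays were closely spaced and all above the parental arrays, which were spread more widely. A separation in this direction was found for 29.9% of all genes. The difference was 0.83 (SE 0.17, 95% interval 0.46 to 1.20, limma adjusted p = 0.00387), a 1.77-fold higher signal, and 0.67 (adjusted p = 0.00302) without the arrays that stood apart. Under IgG the Foxa1 arrays overlapped, at 9.13, 8.90 and 8.82 in Res+IgG, against 9.18, 8.65 and 8.74 in Sen+IgG, with an interval of -0.28 to 0.47.

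Foxa2, the forkhead partner of Foxa1, was not called under either antibody. It read 9.15, 9.06 and 9.37 in Res+PD1, against 9.56, 9.70 and 9.18 in Sen+PD1, a difference of -0.29 (95% interval -0.61 to 0.036, limma adjusted p = 0.156). Sen+PD1 replicate 3, an array that stood apart, lay within the resistant range. Without that array the difference was -0.44 and was called (limma adjusted p = 0.0319). Under IgG Foxa2 read 9.31, 9.09 and 9.23 in Res+IgG, against 9.16, 9.51 and 9.49 in Sen+IgG, and the interval ran from -0.50 to 0.15.

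Cldn18, a claudin whose splice forms are characteristic of lung and stomach, read 4.56, 4.47 and 4.42 in Res+IgG, against 4.01, 4.45 and 4.73 in Sen+IgG. It read 4.42, 4.43 and 4.56 in Res+PD1, against 4.35, 5.08 and 4.51 in Sen+PD1. The spread was wider in both parental groups, and the arrays overlapped under both antibodies. Its second probe set, 1425445_a_at, lay between 3.66 and 4.11. On it the Res+IgG arrays, at 4.11, 4.04 and 4.01, lay just above those of Sen+IgG, at 3.87, 3.78 and 3.99. They also lay above those of Res+PD1, at 3.89, 3.86 and 4.00. Neither difference was called, with limma adjusted p of 0.319 and 0.943 over all probe sets. A separation of the lines under IgG with the resistant arrays higher was found for 23.6% of all genes.

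**Figure D3:**
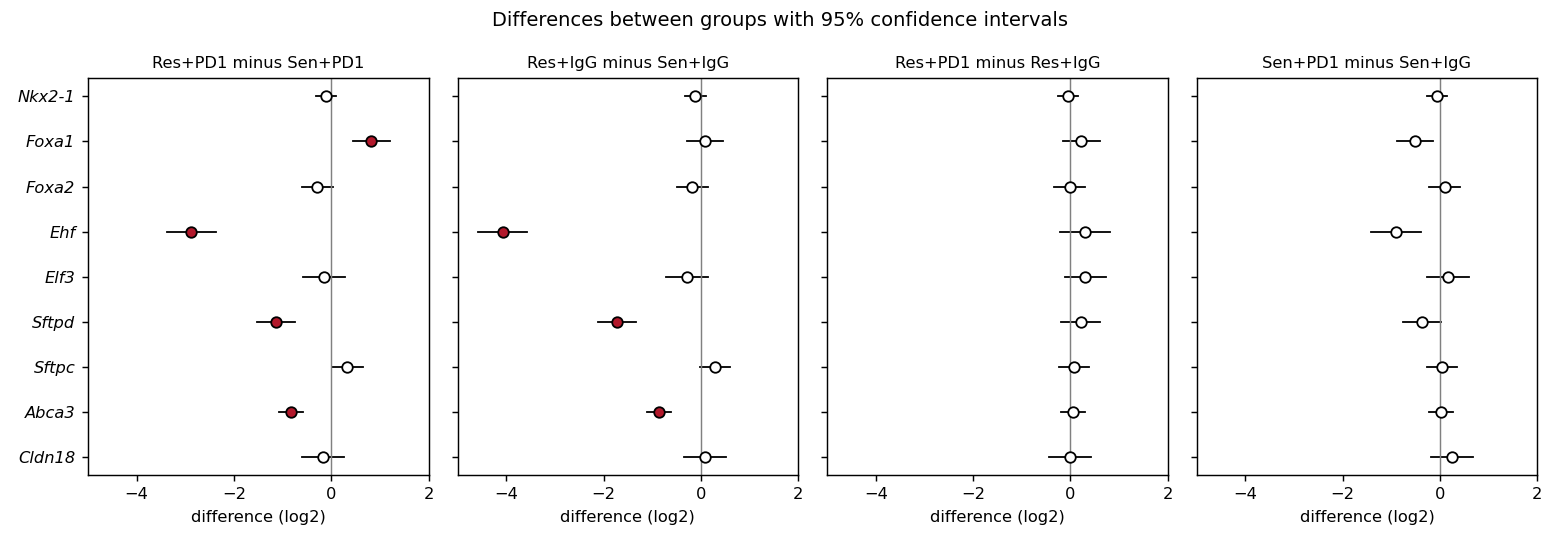
Differences in log2 level (horizontal axes, with 95% intervals from limma) of the 9 genes for both comparisons of the lines and both of the antibodies. Filled points passed an adjusted p of 0.05: Ehf, Sftpd and Abca3 lie below 0 in both comparisons of the lines, and Foxa1 lies above 0 at 0.83 under anti-PD-1.

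In parental tumours, anti-PD-1 against IgG gave 0 of 9 calls by limma, against 3.5% of all genes, and 2 of 9 at an unadjusted p under 0.05, against 21.9% of all genes. The share over all genes, 542 genes, varied with the array left out. It was 9 genes without Sen+IgG replicate 3, 11 without replicate 2 and 165 without replicate 1 of that group. It was 57 without Sen+PD1 replicate 3, 507 without replicate 2 and 711 without replicate 1 of that group. Without Res+IgG replicates 1, 2 and 3 it was 172, 426 and 568, and without Res+PD1 replicates 1, 2 and 3 it was 208, 187 and 179. The median difference of the 9 genes was 0.03, and -0.0067 over all genes. The 2 were Ehf and Foxa1, with group values as given above. The Ehf arrays of the groups did not overlap, all 3 of Sen+PD1 lying below all 3 of Sen+IgG, and the difference was -0.90 (95% interval -1.41 to -0.39, limma adjusted p = 0.0587). Arrays that do not overlap in this direction were found for 13.4% of all genes. Fitted over all probe sets, 1419475_a_at was called, at 6.40, 6.34 and 6.15 in Sen+PD1, against 7.60, 7.41 and 7.37 in Sen+IgG, a difference of -1.16 (SE 0.10, limma adjusted p = 0.00272). The other 2 tested Ehf probe sets differed by -0.90 and -0.56 with adjusted p of 0.0571 and 0.109, also without overlap. Foxa1 differed by -0.51 (95% interval -0.88 to -0.13, limma adjusted p = 0.118), and its groups overlapped. Without the 2 arrays that stood apart, the differences were -0.68 for Ehf (adjusted p = 0.264) and -0.185 for Foxa1 (adjusted p = 0.531). Of 12 skeletal muscle markers, 0 were called between the same groups, with a median difference of 1.32, and the list mean ran from 9.56 to 11.4 in Sen+PD1, against 6.53 to 10.6 in Sen+IgG, which overlap. The part of host tissue in the Ehf difference was not tested.

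In resistant tumours, anti-PD-1 against IgG gave 0 of 9 calls by limma, with 0 at an unadjusted p under 0.05. Over all genes 0% were called, and 4.76% had an unadjusted p under 0.05. The differences ran from -0.057 for Nkx2-1 to 0.31 for Elf3, with a median of 0.077, against 0.03 over all genes. By the probe set that stood for each gene, Foxa1 was the only one of the 9 whose arrays did not overlap, with a difference of 0.23 and an adjusted p of 0.896. Arrays that do not overlap in this direction were found for 8.82% of all genes.

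The interaction asks whether the antibody difference was unequal in the lines, as resistant minus parental. By limma 0 of 9 genes were called, against 0% of all genes, and 3 of 9 had an unadjusted p under 0.05, against 17.5% of all genes. Ehf had an interaction of 1.20 (95% interval 0.48 to 1.93, limma adjusted p = 0.155). Foxa1 had one of 0.73 (95% interval 0.21 to 1.26, limma adjusted p = 0.191), and Sftpd one of 0.58 (95% interval 0.027 to 1.14, limma adjusted p = 0.267). Without the 2 arrays that stood apart these were 0.98, 0.412 and 0.685, with 0 called. The larger distance of Ehf between the lines under IgG than under anti-PD-1 was thus not called at the gene level. Ehf averaged 4.62 in Res+PD1 and 4.32 in Res+IgG, against a filter floor of 3.32, and the part of low signal was not tested. All of these comparisons reuse the same 4 groups, so each group's chance values enter several of them.

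Across the groups, Ehf averaged 4.62 ± 0.56 in Res+PD1, 4.32 ± 0.13 in Res+IgG, 7.49 ± 0.23 in Sen+PD1 and 8.39 ± 0.17 in Sen+IgG (SD, n = 3 each). Its order from low to high was Res+IgG, Res+PD1, Sen+PD1 and Sen+IgG, and only the first pair of neighbours overlapped. Sftpd averaged 4.60 ± 0.32 in Res+PD1, 4.39 ± 0.11 in Res+IgG, 5.74 ± 0.30 in Sen+PD1 and 6.12 ± 0.18 in Sen+IgG. It had the same order, and its neighbours separated only between the lines. Abca3 averaged 7.70 ± 0.11 in Res+PD1, 7.65 ± 0.16 in Res+IgG, 8.54 ± 0.15 in Sen+PD1 and 8.51 ± 0.11 in Sen+IgG, so that the groups within a line could not be ordered. Foxa1 averaged 9.18 ± 0.032 in Res+PD1, 8.95 ± 0.16 in Res+IgG, 8.35 ± 0.32 in Sen+PD1 and 8.86 ± 0.28 in Sen+IgG. Sen+PD1 was lowest and Res+PD1 highest, and of the neighbours only Res+IgG and Res+PD1 did not overlap.

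The genes whose levels followed these 4 most closely were found by Pearson's r over the 12 arrays, as a description in which the split between the lines carries much of the likeness. For Ehf they were Sec61a2 (r = 0.988), Ccnd2 (0.986) and Akr1c13 (0.985). For Sftpd they were Arhgap44 (0.978), Nlrp10 (0.975) and Ehf itself (0.972). For Abca3 they were Ankrd16 (0.981), Stx16 (0.980) and Hgfac (0.978). For Foxa1, whose levels do not follow the line alone, they were Uhrf2 (0.976), Pik3c3 (0.972) and Trim33 (0.969).

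Further genes of the alveolar programme were counted from lists that were also chosen with earlier results of these data known, so the counts are descriptions. Over all genes tested, 8.93% were called higher and 7.31% lower in resistant tumours under IgG. Under anti-PD-1 these shares were 21.6% and 11.9%, and they stand beside all list counts between the lines that follow. Of 10 other alveolar type 2 genes, 3 were lower and 0 higher in resistant tumours under IgG, with a median of -0.10, and 3 were lower and 1 higher under anti-PD-1, with a median of -0.29. Sftpb, encoding the surfactant protein B needed for lamellar bodies, read 6.09, 6.11 and 6.06 in Res+IgG, against 6.85, 8.33 and 8.09 in Sen+IgG, a difference of -1.67 (limma adjusted p = 0.0289). Under anti-PD-1 it read 6.20, 6.10 and 5.73 in Res+PD1, against 6.90, 7.17 and 8.68 in Sen+PD1, a difference of -1.57 (limma adjusted p = 0.0199). Ctsh, a protease that processes surfactant proteins B and C, was lower by differences of -0.62 and -0.53. Etv5, an ETS factor of alveolar type 2 cells, was lower under IgG (-0.73), and Muc1, a membrane mucin, was higher under anti-PD-1 (1.00). Lpcat1, an acyltransferase that makes surfactant phospholipid, was lower under anti-PD-1 (-0.28, limma adjusted p = 0.0242). Of 8 alveolar type 1 genes, Ager, the receptor for advanced glycation end products, was lower under both antibodies (-0.82 and -0.58), and the water channel gene Aqp5 was higher under anti-PD-1 (0.84).

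Of the 5 airway genes tested from a list of 8, 1 was called under IgG and 2 under anti-PD-1, all higher, with medians of 0.13 and 0.14. Sox2, a factor of the conducting airway and of the oesophagus and forestomach, was called under both. It read 3.84, 4.40 and 3.73 in Res+IgG, against 2.21, 2.17 and 2.24 in Sen+IgG, and 4.33, 4.09 and 3.35 in Res+PD1, against 2.05, 2.02 and 1.98 in Sen+PD1. Every parental array was below the floor, so Sox2 passed the filter only through the resistant arrays. The direction of its difference was thereby set by the filter, and no conclusion is drawn from its calls. No size is printed for it, and its points in the plot of the lists of related genes are not to be read as sizes. Scgb3a1, a secretory protein gene, was higher by 0.31 under anti-PD-1.

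Of 13 tested foregut and gastric genes, 4 were lower and 0 higher in resistant tumours under IgG, with a median of -0.027. They included Vil1, encoding the microvillus protein villin (-1.90, limma adjusted p = 0.00103), Gkn2, a gastrokine of the stomach surface (-1.07), and Onecut2 (-0.58). Under anti-PD-1 5 were higher and 1 lower, with a median of 0.32. These included Lgals4 (1.26, limma adjusted p = 1.23e-04), the gastric trefoil factor gene Tff2 (1.59) and the pancreatic and duodenal factor gene Pdx1 (0.94). In parental tumours anti-PD-1 against IgG gave 2 lower, Gkn2 (-1.23) and Lgals4 (-0.65), where 3.5% of all genes were called in either direction. The list median was -0.38, and 12 of 13 differences were negative. In the interaction all 13 differences were positive with a median of 0.48, and 0 were called. The median over all genes was 0.033, and 12 of 16 epithelial differences were positive. All differences of the skeletal muscle (12), macrophage, fibroblast, endothelial, T and NK cell (10 each) and adipocyte (6) lists were negative. For the antibodies in parental tumours those lists were positive throughout, apart from 1 fibroblast gene. The part of tissue composition in the foregut differences was not tested.

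Among 15 tested relatives of the ETS, forkhead and lung factors, 1 was lower under IgG, the progenitor factor gene Sox9 (-0.59), and 1 was higher under anti-PD-1, Foxa3 (0.64). Of 16 tested epithelial genes, 3 were lower and 0 higher under IgG, with a median of -0.31, and 3 were lower and 2 higher under anti-PD-1, with a median of -0.077. Ocln, encoding the tight junction protein occludin, was lower by differences of -2.97 (limma adjusted p = 1.35e-04) and -2.77 (limma adjusted p = 9.43e-05). It read 4.38, 4.33 and 3.72 in Res+IgG, against 7.48, 7.25 and 6.61 in Sen+IgG. Epcam, an epithelial adhesion molecule gene, was lower under IgG (-1.54, SE 0.43, limma adjusted p = 0.0354). Its levels were 8.08, 7.58 and 7.51 in Res+IgG, against 10.37, 8.95 and 8.48 in Sen+IgG. The highest, 10.37, came from Sen+IgG replicate 1, an array that stood apart. The keratin gene Krt18 was lower under both antibodies (-0.38 and -0.36). Cldn4, another claudin gene, was lower under anti-PD-1 (-1.28, limma adjusted p = 0.0115). The 2 called higher under anti-PD-1 were Krt19, another keratin gene (0.55, limma adjusted p = 0.0346), and Esrp2 (0.32, limma adjusted p = 0.0491). The mean of the epithelial list ran from 7.49 to 7.58 in Res+IgG, against 7.72 to 8.44 in Sen+IgG, and from 7.58 to 7.62 in Res+PD1, against 7.61 to 8.01 in Sen+PD1. Its part in the lower Ehf, Sftpd and Abca3 was not tested.

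**Figure D4:**
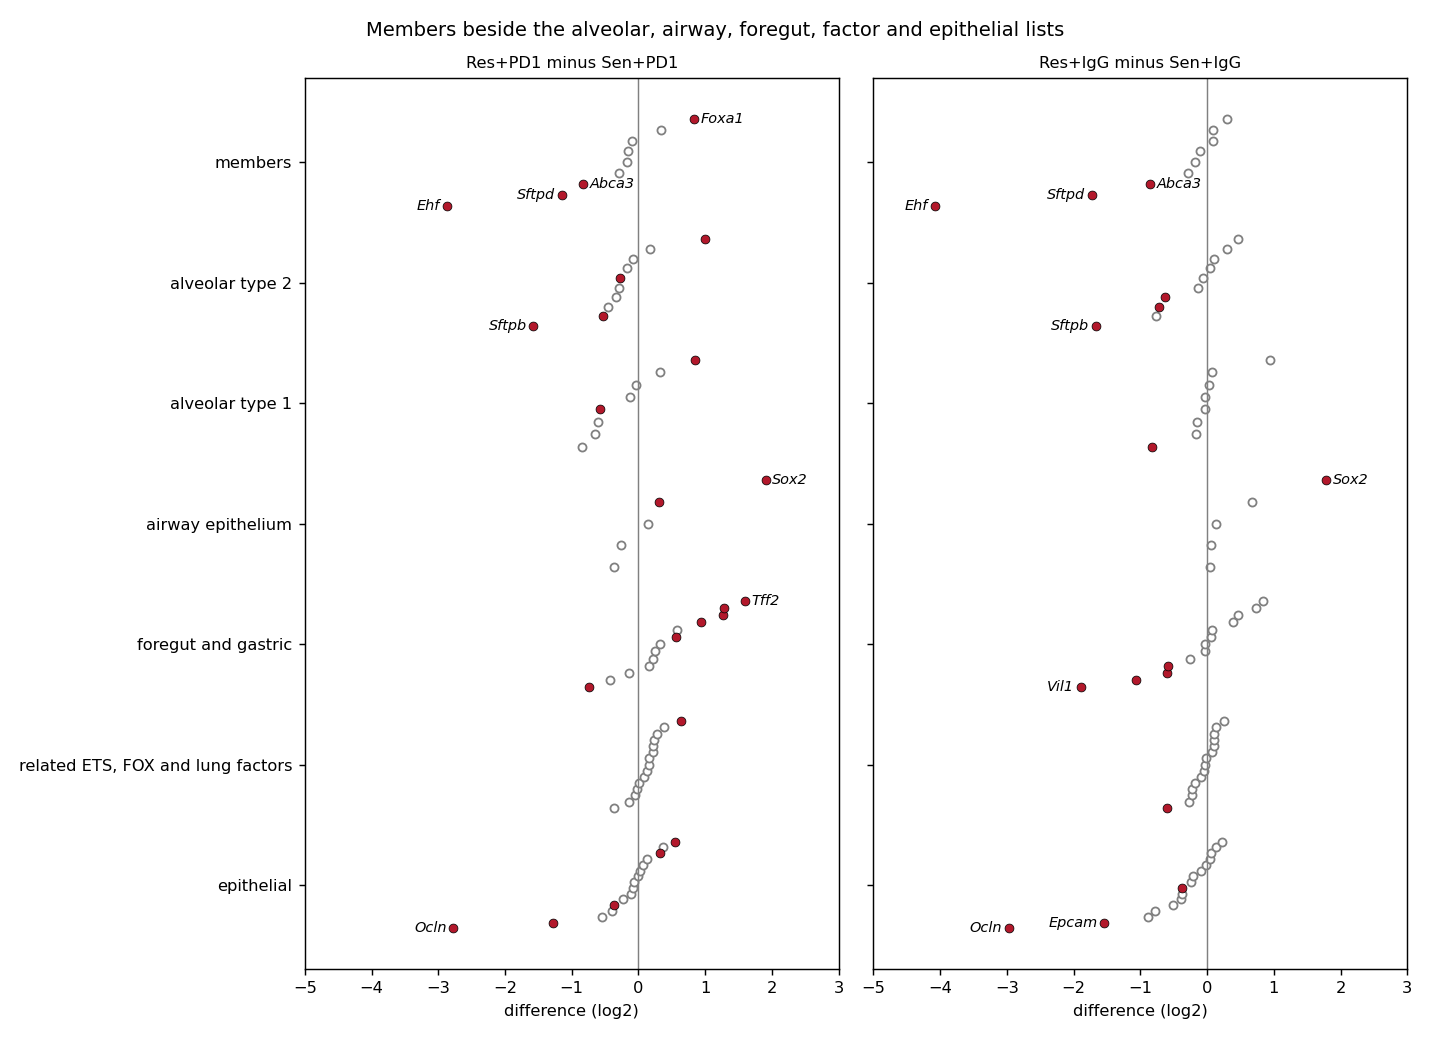
Differences in log2 level (horizontal axes) between the lines under anti-PD-1 (Res+PD1 minus Sen+PD1) and IgG (Res+IgG minus Sen+IgG) for the 9 genes and 6 lists of related genes. Each point is 1 gene and filled points passed an adjusted p of 0.05. Ehf at -4.08 and Ocln at -2.97 lie far from the bulk of the lists under IgG. The points of Sox2, whose parental arrays all lay below the floor, are not to be read as sizes.

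Other tissues of the flank also express some of these genes, and their markers were counted in the same samples. The shares called over all genes were 8.93% higher and 7.31% lower under IgG, and 21.6% and 11.9% under anti-PD-1. Ehf is expressed in skin and mammary epithelium. Of 8 tested keratinocyte genes, 1 was higher and 0 lower in resistant tumours under IgG and 0 were called under anti-PD-1, and the list mean ran from 5.28 to 5.46 in Res+IgG, against 4.85 to 5.10 in Sen+IgG. Of 4 tested mammary genes, 0 were called under IgG, where their mean ran from 4.57 to 4.70 in Res+IgG, against 4.25 to 4.48 in Sen+IgG. Under anti-PD-1 the keratinocyte mean ran from 5.34 to 5.35 in Res+PD1, against 4.81 to 5.96 in Sen+PD1, and the mammary mean from 4.56 to 4.68 in Res+PD1, against 4.27 to 4.51 in Sen+PD1, with 1 mammary gene called higher. The skeletal muscle list had 0 of 12 genes called under IgG and 2 lower under anti-PD-1, and its mean ran from 6.17 to 9.01 in Res+PD1, against 9.56 to 11.4 in Sen+PD1. Macrophage markers, whose list mean lay between 7.50 and 8.51 over all groups, were 2 higher of 10 under IgG and 2 lower of 10 under anti-PD-1. Of 10 endothelial genes 2 were higher under IgG (median 0.72) and 0 called under anti-PD-1, and of 6 adipocyte genes 2 were higher under IgG (median 1.25) and 1 higher under anti-PD-1 (median -0.18). Of 10 fibroblast genes 1 was higher under IgG and 1 lower under anti-PD-1. Of 10 T and NK cell genes 1 was lower under IgG and 4 lower under anti-PD-1, and their mean ran from 4.41 to 5.03 in Res+PD1, against 5.05 to 6.07 in Sen+PD1. Of 10 mature dendritic cell genes 0 were called under IgG and 4 were lower under anti-PD-1. The part of these host tissues in the differences between lines was not tested.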

How the data were processed

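Total RNA of whole tumours was transcribed into biotin-labelled RNA and applied to Affymetrix mouse expression arrays, per the labels' protocols. The authors deposited log2 expression values for 45101 probe sets on 12 arrays. The log2 scale was read from the values, 1.62 to 13.88, and the sources used here do not give the background correction or normalization. Such normalization assumes that most genes are alike between arrays. No pair of arrays was identical (0 pairs), and correlations ran from 0.959 to 0.997.

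Arrays were grouped by title, 3 per group. Of the probe sets, 64 were controls, 34945 named 1 gene and were used, and 932 named several and were left out. For 34741 probe sets the gene number was found in RefSeq GRCm38.p6, and the symbol was taken from there. The probe set with the highest mean stood for its gene, and genes above 3.32, the 25th percentile of all values, on at least 3 arrays were tested. Limma 3.58.1 in R 4.3.3 fitted 1 mean per group over all 12 arrays with 8 residual degrees of freedom, and 5 contrasts were tested. The p-values are two-sided, Benjamini-Hochberg adjusted over all 15493 genes in a contrast (28634 for probe sets), and called under 0.05. The fit was tested on simulated data. Figures used matplotlib 3.10.9 in Python 3.11.15.

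The 10 genes and the 15 gene lists were chosen with earlier results of these data known, so counts over the genes and over the lists are descriptions. Named were all 10 genes, the called genes of the alveolar, airway, foregut, factor and epithelial lists with the 3 smallest p in a contrast, and the 3 genes most correlated with each gene called between the lines. Sftpa1, Gkn1 and Ctse were named for their levels, with the values in view.

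Groups share replicate numbers. The correlations of deviations between same-numbered arrays ran from -0.208 to 0.254 between the lines under IgG, 0.093 to 0.272 between the lines under anti-PD-1, 0.057 to 0.636 for the antibodies in parental tumours and 0.113 to 0.174 in resistant tumours. All 3 pairs exceeded 0.1 only for the last. Other filters, probe set rules, normalizations, variance models, array weights, the replicate block and left-out arrays were tried.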

Additional observations from a re-analysis of the deposited data

Results flagged for a closer look

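For the Ehf probe set 1419475_a_at the test of unequal antibody differences in the lines passed. Over all probe sets its interaction, the antibody difference in resistant tumours minus that in parental tumours, was 1.39 (SE 0.15, limma adjusted p = 0.0311). It read 4.38, 4.28 and 4.13 in Res+PD1, against 4.14, 4.04 and 3.93 in Res+IgG, and 6.40, 6.34 and 6.15 in Sen+PD1, against 7.60, 7.41 and 7.37 in Sen+IgG. The arrays of the antibodies did not overlap in parental tumours and overlapped in resistant tumours. The resistant levels, 3.93 to 4.38, lie not far above the floor of 3.32, a filter cut-off below which values down to 1.62 occur. The part of low signal in this interaction was not tested. Of the other 2 tested Ehf probe sets, 1451375_at had an interaction of 1.20 (limma adjusted p = 0.165). That of 1419474_a_at was not called either (limma adjusted p = 0.169), and its size is not given because resistant arrays lay below the floor.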

How the results depend on the processing

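The 9 genes' differences were recomputed under 13 other settings and with each of the 12 arrays left out, 1101 values in all. Of these, 1035 kept direction and side of the threshold, 11 passed it newly, 0 lost it and 55 changed sign, with 0 of the last called in either fit. The 3 calls under IgG stood in every setting (3 to 3 without 1 array), and the 4 under anti-PD-1 were 4 to 5. In resistant tumours and in the interaction 0 to 0 genes were called. In parental tumours 0 to 1 were called without 1 array. That gene was Ehf: 1 with the filter at the median of all values (-0.90, adjusted p = 0.0481), 1 with the mean of all probe sets (-0.67, 0.0204) and 1 with the replicate block (-0.90, 0.0449), and also without Res+PD1 replicate 1 (0.0485) or 2 (0.0385). Its adjusted p ran from 0.0204 to 0.264. The replicate block changed no other call of a member. Between the lines Ehf ranged from -4.15 to -2.72 under IgG and -3.14 to -1.79 under anti-PD-1, the smallest with the mean of all probe sets, Sftpd from -1.82 to -1.64 and -1.32 to -1.01, Abca3 from -0.95 to -0.67 and -0.90 to -0.68, and Foxa1 under anti-PD-1 from 0.67 to 0.98. Foxa2 under anti-PD-1 was also called with array weights (-0.41) and without both arrays that stood apart (-0.44), and Sftpc with the mean of probe sets (0.29), centring (0.44) and quantile normalization (0.42). The mean of probe sets takes in dim ones. For Sftpc it includes 1438290_x_at, below the floor on all 12 arrays. For Ehf it includes 1447760_x_at, above the floor on 1 array, and 1419474_a_at, above it on 9. Nkx2-1 by antibody in parental tumours kept its sign without 1 array (-0.147 to -0.007). Sign changes, none of them called: with array weights, Cldn18 between lines under IgG (-0.026), Elf3 under anti-PD-1 (0.041) and the Nkx2-1 interaction (-0.048); without both arrays that stood apart, the same 3 (-0.107, 0.038 and -0.082), Nkx2-1 by antibody in parental tumours (0.025) and the Abca3 (-0.103) and Sftpc (-0.013) interactions; with centring, Cldn18 (0.010) and Foxa2 (0.007) by antibody in resistant tumours and Nkx2-1 between lines under anti-PD-1 (0.003); with quantile normalization, Cldn18 by antibody in resistant tumours (0.019) and the Abca3 interaction (-0.054, and -0.006 with the mean of probe sets). Without 1 array, sign changes left these ranges: by antibody in parental tumours Abca3 -0.057 to 0.092 (0.150 without both arrays that stood apart), Elf3 -0.018 to 0.367, Foxa2 -0.020 to 0.243 and Sftpc -0.015 to 0.140; in resistant tumours Abca3 -0.015 to 0.140, Cldn18 -0.058 to 0.025, Foxa2 -0.105 to 0.050 and Sftpc -0.097 to 0.178; in the interaction Abca3 -0.045 to 0.110, Elf3 -0.057 to 0.328, Foxa2 -0.260 to 0.003, Nkx2-1 -0.050 to 0.090 and Sftpc -0.137 to 0.138; between lines under IgG Cldn18 -0.107 to 0.253 and Foxa1 -0.010 to 0.255, and under anti-PD-1 Cldn18 -0.325 to 0.040 and Elf3 -0.347 to 0.038. The causes were not tested. Over all genes, centring moved the share called higher under IgG to 70.4% of 3000, against 55.0% of 2517, and under anti-PD-1 to 79.6% of 6373, against 64.5% of 5186. Array weights called 5152 genes between lines under IgG; in parental tumours they called 918 and the fit on the compared groups alone 0, against 542. Signal near background limits Nkx2-1, Sftpc, Cldn18, and Ehf and Sftpd in resistant tumours.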
